A study of Sus scrofa with 12 samples.

Results

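The ID genes (ID1, ID2, ID3 and ID4) and the E protein genes whose products they bind (TCF3, TCF4 and TCF12) were followed through the differentiation of porcine induced pluripotent stem cells (piPSCs) towards endothelial cells and in a porcine endothelial cell line. The 7 genes were chosen by name and looked up by the Ensembl pig gene symbol. All 7 were found, each under 1 identifier, among the 19681 gene identifiers of the expression files.

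E proteins are basic helix-loop-helix (bHLH) transcription factors that bind the E box of DNA as dimers, either with each other or with tissue-restricted bHLH partners such as TAL1, HAND1 or MYOD1. ID proteins have the helix-loop-helix domain but lack the basic region, so a dimer of an ID protein and an E protein does not bind DNA. ID genes are classical immediate targets of bone morphogenetic protein (BMP) signalling through SMAD1 and SMAD5, and ID1 and ID3 are known for their role in the vessels of embryos and tumours.

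RNA sequencing values of 12 libraries were analysed, 3 replicates (A, B and C) of each of 4 groups. In the induction, piPSCs on Matrigel received the GSK3 inhibitor CHIR99021 for the first 2 days (IEC2, day 2), then BMP4, FGF2 and VEGF (IEC4, day 4), and then the endothelial medium EGM-2 with VEGF (IEC12, day 12). IEC12 is the whole culture before the sort for CD31-positive cells, and all 9 IEC libraries carry the label of induced endothelial cells. AOC is a line of porcine endothelial cells that was not induced. Because each stage follows a change of medium, the day and the added factors cannot be told apart, and AOC differs from every IEC group in origin and culture as well as in cell type. The study calls the sequenced replicates biological repeats, and whether each was a separate induction is not stated for them, so p-values measure only the spread between these libraries.

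The values are FPKM (fragments per kilobase of transcript, normalised for the depth of the library), which allow levels to be compared between genes per length but hold no read count, so the depth behind each value is unknown. FPKM summed to between 335976.4 and 457193.7 in a library, and 8357 to 10467 genes reached an FPKM of 1. The endothelial label was checked against 17 marker genes, of which 13 were found. Their summed FPKM was 317 to 459 in AOC but lay between 5.78 and 9.55 in IEC2, between 4.63 and 7.06 in IEC4 and between 0.713 and 2.63 in IEC12. CDH5, which encodes VE-cadherin, was listed at 0 in all 9 IEC libraries and at 103 to 137 FPKM in AOC, and PECAM1 (CD31) lay between 0.0197 and 0.554 FPKM in the IEC libraries. Of the list, 2 genes were higher in some IEC groups than in AOC. KDR, a VEGF receptor, was higher in IEC2 (2.95 ± 0.898 FPKM) than in AOC (1.36 ± 0.0848; AOC against IEC2 -0.72, adjusted p = 0.00235) but at most 0.302 FPKM in IEC4 and IEC12. ENG, the co-receptor endoglin, was higher in IEC2 and IEC4 than in AOC (-0.91 and -1.20, adjusted p = 0.0269 and 0.00582). The IEC groups are therefore named here by their day and not as endothelial cells. Marker lists of other cell types also differed between groups. The 8 epithelial and trophoblast markers found of 9 (CDH1 and keratins among them) summed to 357, 499 and 1015 FPKM in IEC4 replicates A, B and C and to at most 33.9 in any other library, with EPCAM at 0 in all of IEC2 and CDH1 and KRT18 at 0 in all of AOC. KRT8 gave most of the IEC4 sum (300, 435 and 748 FPKM). TFAP2A had its highest mean in IEC2 (2.59 ± 0.188 FPKM) and GATA3 in IEC12 (11.7 ± 3.97), while the other markers found had theirs in IEC4. The 4 neural markers found of 5 summed to 370 to 397 FPKM in IEC12, nearly all of it STMN2 (381 ± 14.1, SD, n = 3), and to at most 16.3 elsewhere, with ELAVL3 at 0 in all of IEC2 and AOC. TUBB3 and PAX6 had their highest means in AOC (7.65 ± 1.68 and 3.5 ± 0.149 FPKM), against 0.106 and 0.226 in IEC12. Smooth muscle and fibroblast markers (7 of 7 found) summed to 5.27 to 16.9 FPKM in IEC4 and 5.2 to 14.2 in AOC, against at most 0.892 in IEC2 and IEC12, with DES at 0 in all of IEC2 and AOC and CNN1 at 0 in all of AOC. Most of the AOC sum was ACTA2 (7.49 ± 4.59). TAGLN had its highest mean in IEC12 (0.345 ± 0.176) and MYH11 in IEC2 (0.0536). TAGLN, CNN1, MYH11 and PDGFRB stayed under an FPKM of 1 in all 12 libraries. Pluripotency markers (3 of 8 found) summed to 3.3 to 6.39 FPKM in IEC4 and at most 1.56 elsewhere, with LIN28A at 0 in all of IEC2 and AOC and LIN28B at 0 in all of IEC4 and AOC. Nearly all of the IEC4 sum was LIN28A (4.27 ± 1.45). NANOG (0.732 ± 0.431 FPKM) and LIN28B (0.045 ± 0.0475) had their highest means in IEC12. Endoderm markers (4 of 7 found) summed to 24.8 to 39 FPKM in AOC, nearly all of it APOA1 (29.8 ± 7.89), and at most 3.71 elsewhere, with HNF4A at 0 in all of IEC2, IEC4 and AOC and TTR at 0 in all of IEC4. Mesoderm markers (7 of 9 found) summed to 8.88 to 12.1 FPKM in IEC4, most of it HAND1 (7.65 ± 2.02), and at most 5.59 elsewhere, with MIXL1 and EOMES at 0 in all 12 libraries. PDGFRA had its highest mean in IEC2 (4.24 ± 0.789 FPKM), MESP1 and MESP2 in AOC, and TBX6 in IEC4 (0.163 ± 0.029). Blood markers (4 of 6 found) summed to 4.16 to 12 FPKM over all libraries. The part that other cell types had in the results below was not tested, and in whole cultures more cells of a type and more RNA per cell cannot be told apart.

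In the pig assembly Sscrofa11.1 the ID genes are short. ID1 (ENSSSCG00000037016) spans chr17:35316518-35317742, ID2 (ENSSSCG00000008645) chr3:127500759-127503207, ID3 (ENSSSCG00000039514) chr6:81422541-81424169 and ID4 (ENSSSCG00000024312) chr7:15281535-15284895, or 1225 to 3361 bases each. The E protein genes are longer: TCF3 (ENSSSCG00000013437) at chr2:76859079-76906275 spans 47197 bases, TCF4 (ENSSSCG00000004535) at chr1:104718809-105079919 spans 361111, and TCF12 (ENSSSCG00000004600) at chr1:114682299-115056363 spans 374065. TCF3 encodes E2A, TCF4 encodes E2-2 and TCF12 encodes HEB, and TCF4 here is not the Wnt effector TCF7L2, which is often called by the same name.

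ID3 had the highest listed level of the ID genes in every library and rose at each step of the induction. Its level was 34.8, 15.7 and 24.9 FPKM in IEC2 replicates A, B and C, 559, 512 and 753 in IEC4, and 2716, 2678 and 2577 in IEC12. Every library of a later stage lay above every library of an earlier one. AOC held 643, 758 and 613 FPKM, which overlapped IEC4 and lay below IEC12. The means were 25.1 ± 9.58 in IEC2, 608 ± 128 in IEC4, 2657 ± 71.8 in IEC12 and 671 ± 76.3 in AOC (SD, n = 3 each). In the ranking of all 19681 genes of a library by FPKM, ID3 stood between places 1619 and 3097 in IEC2, between 45 and 67 in IEC4, between 10 and 16 in IEC12 and between 63 and 94 in AOC.

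IEC4 exceeded IEC2 in ID3 by 4.59 on the log2(FPKM + 1) scale (SE 0.25, limma, adjusted p = 3.27e-06), a ratio of means of 24.2. From IEC4 to IEC12 the gene rose by a further 2.14 (SE 0.25, adjusted p = 0.000217), or 4.37-fold, which made IEC12 106 times IEC2. The line AOC stood 4.75 above IEC2 (SE 0.232, adjusted p = 9.51e-09) and 1.99 below IEC12 (log2 fold change -1.99, SE 0.232, adjusted p = 1.61e-05). Between AOC and IEC4 no difference was called (0.16, SE 0.232, adjusted p = 0.563). That value depends on the scaling, because the median gene was 0.45 lower in AOC than in IEC4 (log2 fold change -0.45). With median-of-ratios scaling of the libraries, which brought the median to -0.02, ID3 stood 0.68 higher in AOC (adjusted p = 0.0429), and with equal FPKM totals the sign turned (-0.11, adjusted p = 0.681).

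ID2 also rose between IEC2 and IEC4, from a level near the limit of the filter. It was listed at 0.657, 0.976 and 0.728 FPKM in IEC2, at 18.8, 19.2 and 39.5 in IEC4, at 38.4, 41.8 and 38.4 in IEC12, and at 3.82, 3.64 and 4.02 in AOC. IEC2 lay below all other groups, and AOC lay between IEC2 and the later stages with no overlap. The group means were 0.787 ± 0.168, 25.8 ± 11.9, 39.5 ± 1.96 and 3.83 ± 0.189 FPKM (SD, n = 3 each) in IEC2, IEC4, IEC12 and AOC. Since all 3 IEC2 libraries were under an FPKM of 1, ID2 passed the filter through the other groups.

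The difference from IEC2 to IEC4 was 3.83 on the log2(FPKM + 1) scale (SE 0.257, adjusted p = 8.51e-06), a ratio of means of 32.8, and IEC12 held 50.2 times the level of IEC2 (adjusted p = 2.53e-06). Between IEC4 and IEC12 the difference of 0.68 (SE 0.257) missed the limit (adjusted p = 0.0556). That comparison rested on IEC4 replicate C, whose ID2 level of 39.5 FPKM was within the range of IEC12. Without this library the difference was 1.02 (adjusted p = 0.00213), and with median-of-ratios scaling it was 0.90 (adjusted p = 0.0139). IEC4 replicate C was also the library with the highest sum of epithelial and trophoblast markers, 1015 FPKM. AOC held 4.86 times the ID2 level of IEC2 (log2 fold change 1.44, SE 0.233, adjusted p = 0.000191), but IEC4 exceeded AOC 6.75-fold (log2 fold change -2.39, adjusted p = 3.17e-06) and IEC12 exceeded it 10.3-fold (log2 fold change -3.07, SE 0.233, adjusted p = 4.58e-07).

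ID1 and ID4 stayed below an FPKM of 1 in all 12 libraries and were not tested. ID1 was listed at 0 in 9 libraries, and only the C replicates of IEC4, IEC12 and AOC held a value, 0.0142, 0.00692 and 0.00781 FPKM. The nearest genes on either side of ID1 that were found by symbol, HM13 and BCL2L1, were measured at 0.894 to 4.59 and 0.0556 to 8.63 FPKM. A value near 0 in these files is not by itself a sign that a gene is silent. Among 46 genes of cytosolic ribosomal proteins, which every cell uses, RPS2 was likewise listed at 0.0475 to 0.192 FPKM in all 12 libraries, although none of the 46 was at 0. ID4 was listed at 0 in all 3 libraries of IEC2, at 0.0575, 0.274 and 0.954 FPKM in IEC4, at 0.053, 0.00612 and 0.0204 in IEC12, and at 0.0158, 0.348 and 0.046 in AOC. Its IEC4 and AOC libraries overlapped and spread widely, so no order of these groups is given.

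**Figure D1:**
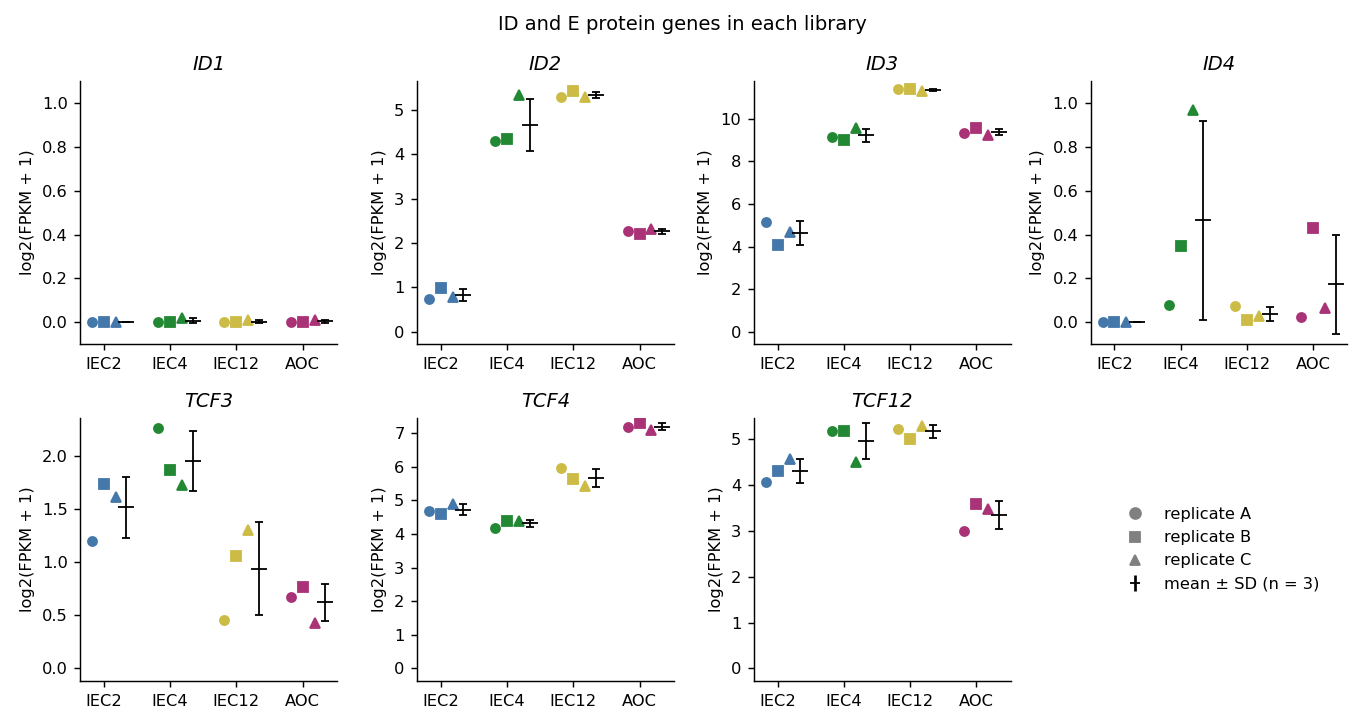
Level of each ID and E protein gene, as log2(FPKM + 1) on the y axis with a separate scale for each gene, in IEC2, IEC4, IEC12 and AOC; circles, squares and triangles are replicates A, B and C, and the black bars give the mean and SD (n = 3). ID3 climbs at each step from IEC2 to IEC12, ID2 is high in IEC4 and IEC12 only, TCF4 is highest and TCF12 lowest in AOC, and ID1 and ID4 stay under an FPKM of 1.

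Among the E protein genes, TCF4 was the one most abundant in the endothelial line. It was listed at 143, 157 and 137 FPKM in AOC, at 24.9, 23.1 and 28.7 in IEC2, at 17.2, 19.9 and 19.7 in IEC4, and at 61.3, 48.3 and 42 in IEC12. No pair of groups overlapped. Means were 146 ± 10.1 FPKM in AOC, 50.5 ± 9.85 in IEC12, 25.6 ± 2.86 in IEC2 and 18.9 ± 1.5 in IEC4 (SD, n = 3 each). AOC exceeded IEC12 in TCF4 by 1.52 on the log2(FPKM + 1) scale (SE 0.145, adjusted p = 2.94e-06), a 2.88-fold difference in means, and the line exceeded IEC4 7.69-fold (adjusted p = 1.46e-08) and IEC2 5.69-fold (adjusted p = 4.06e-08). Within the induction TCF4 rose from IEC4 to IEC12 by 1.35 (SE 0.163, adjusted p = 0.000249), or 2.67-fold. The lower level of IEC4 than of IEC2 (-0.41, SE 0.163) was not called (adjusted p = 0.0726), but it was called in a fit of those 2 groups alone (adjusted p = 0.0438), with median-of-ratios scaling (-0.65, adjusted p = 0.0314) and with equal FPKM totals (-0.48, adjusted p = 0.0325).

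TCF12 followed another order, with AOC at the bottom. Its levels were 6.91, 10.9 and 10.1 FPKM in AOC, 15.6, 18.8 and 22.8 in IEC2, 35.2, 35.2 and 21.5 in IEC4, and 36.1, 31.1 and 38 in IEC12. AOC lay below every IEC library, while IEC4 overlapped IEC12, and overlapped IEC2 through its replicate C. Against the mean of 9.31 ± 2.12 FPKM in AOC, IEC12 (35 ± 3.57) was 3.76-fold higher (log2 fold change of AOC against IEC12 -1.82, SE 0.221, adjusted p = 2.16e-05), IEC4 (30.6 ± 7.91) 3.29-fold and IEC2 (19 ± 3.61) 2.04-fold higher (SD, n = 3 each). The difference between IEC12 and IEC2, 0.86 (SE 0.214), was called (adjusted p = 0.00963), except with equal FPKM totals (0.59, adjusted p = 0.0817). IEC4 exceeded IEC2 by 0.64 (SE 0.214, adjusted p = 0.04), and this call was lost in 8 of 13 alternative settings, with an adjusted p of up to 0.175.

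TCF3 was low in every group. IEC2 held 1.29, 2.34 and 2.06 FPKM, IEC4 3.82, 2.65 and 2.31, IEC12 0.37, 1.08 and 1.47, and AOC 0.596, 0.696 and 0.345. AOC lay below IEC2 and IEC4 and overlapped IEC12, and IEC4 lay above IEC12. The means of 1.9 ± 0.541, 2.92 ± 0.793, 0.973 ± 0.559 and 0.545 ± 0.181 FPKM (SD, n = 3 each) for IEC2, IEC4, IEC12 and AOC fell from IEC4 to IEC12 by 1.02 on the log2(FPKM + 1) scale (log2 fold change -1.02, SE 0.264, adjusted p = 0.0122), a 3.01-fold difference. AOC was also lower than IEC4 (-1.33, SE 0.239, adjusted p = 0.000399) and than IEC2 (-0.89, SE 0.239, adjusted p = 0.00609). In the order IEC4, IEC2, IEC12, AOC, no neighbouring groups were called different, with adjusted p-values of 0.219, 0.104 and 0.279.

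**Figure D2:**
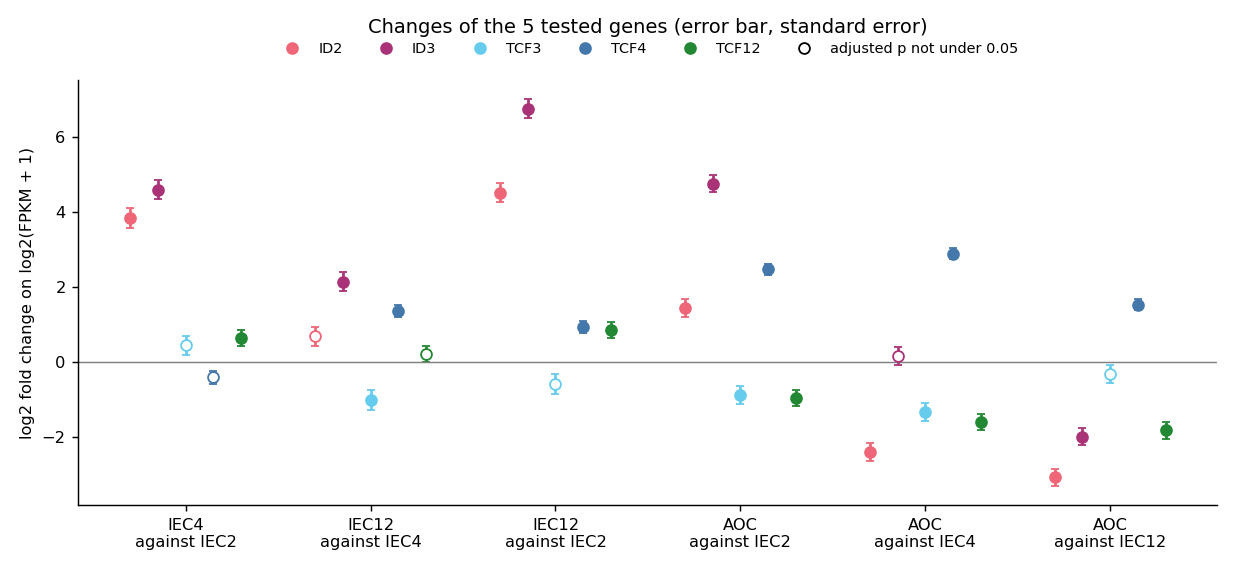
Log2 fold change on the log2(FPKM + 1) scale (y axis) of ID2, ID3, TCF3, TCF4 and TCF12 in the 6 comparisons of groups (x axis), with bars for the standard error; filled points had an adjusted p under 0.05. The points of ID3 in the IEC comparisons lie at 4.59, 2.14 and 6.74, and in the comparisons of AOC with each IEC group TCF4 lies above and TCF12 below 0.

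Of the 7 genes, 5 passed the filter, which asked for 3 or more libraries with an FPKM of 1 or more, and were tested with all other genes. From IEC2 to IEC4, 3 of the 5 were called at an adjusted p under 0.05, all of them higher, where 37.3% of all 10542 tested genes were called (24.8% higher, 12.5% lower). IEC12 differed from IEC4 in 3 of 5 (2 higher, 1 lower), beside 44.2% of all genes (17.3% higher, 26.9% lower), and from IEC2 in 4 of 5, all higher, beside 43.6% (24.2% higher, 19.3% lower). In AOC, 5 of 5 differed from IEC2, 3 of them higher, beside 63.8% of all 11053 tested genes (26.7% higher, 37.1% lower). AOC differed from IEC4 in 4 of 5, 1 of them higher, beside 69.1% (22.1% higher, 47.0% lower), and from IEC12 in 4 of 5, 1 of them higher, beside 58.5% (22.4% higher, 36.2% lower). With 5 genes tested, these shares are not a result about the family as a whole. At stricter limits (p and adjusted p under 0.001, log2 fold change beyond 3 in either direction), ID2 and ID3 were called in IEC4 against IEC2, where 1.18% of all genes were called, and in IEC12 against IEC2, where 1.22% were. ID3 alone was called in AOC against IEC2 (5.47% of all genes) and ID2 alone in AOC against IEC12 (4.41%), and no member passed in IEC12 against IEC4 (0.939%) or AOC against IEC4 (5.17%). The median log2 fold change of the 5 genes was 0.64, 0.68 and 0.94 in IEC4 against IEC2, IEC12 against IEC4 and IEC12 against IEC2, beside 0.20, -0.15 and 0.03 over all tested genes. For AOC against IEC2, IEC4 and IEC12 it was 1.44, -1.33 and -1.82, beside -0.20, -0.45 and -0.21. These comparisons share groups with each other and are not independent.

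Summed over the family, the FPKM of ID genes exceeded that of E protein genes in IEC4, IEC12 and AOC. The summed ID level divided by the summed E protein level was 0.85, 0.376 and 0.479 in IEC2 replicates A, B and C, 10.3, 9.21 and 18.3 in IEC4, 28.2, 33.8 and 32.1 in IEC12, and 4.3, 4.52 and 4.18 in AOC. Only IEC2 lay under 1, and the 4 groups did not overlap. The mean ratios were 0.568 ± 0.249 in IEC2, 12.6 ± 4.94 in IEC4, 31.4 ± 2.9 in IEC12 and 4.33 ± 0.173 in AOC (SD, n = 3 each). ID3 made up 94.1 to 99.5% of the summed ID level in every library, and without it the ratio stayed under 1, at 0.0171 in IEC2, 0.535 in IEC4, 0.462 in IEC12 and 0.0256 in AOC. The ratio of ID3 to ID2 was 25.2 ± 5.5 in IEC4, 67.3 ± 3.36 in IEC12 and 176 ± 28.6 in AOC, with no overlap among these groups, while the IEC2 libraries spread from 16.1 to 53. The sums, shares and ratios take ID1 and ID4 at their listed values, and a value near 0 in these files is not by itself a sign that a gene is silent. These are ratios of transcript levels, and protein was not measured in these files.

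The sum of the E protein transcripts and its makeup both differed between groups. The sum was 46.5 ± 6.21 FPKM in IEC2, 52.5 ± 7.83 in IEC4, 86.5 ± 9.74 in IEC12 and 155 ± 11.3 in AOC (SD, n = 3 each). In AOC, TCF4 held 93.7 ± 1.16% of it, TCF12 5.97 ± 1.21% and TCF3 0.348 ± 0.099%. In IEC2 and IEC12 TCF4 and TCF12 were closer, with 55.2 ± 3.91% and 40.7 ± 3% in IEC2 and 58.1 ± 5.82% and 40.7 ± 5.18% in IEC12. IEC4 was the group in which TCF12 led in each library, with 62.6, 60.9 and 49.4% against 30.6, 34.5 and 45.3% for TCF4. The ratio of TCF4 to TCF12 was 1.37 ± 0.205 in IEC2, 0.658 ± 0.228 in IEC4, 1.45 ± 0.309 in IEC12 and 16.2 ± 3.9 in AOC, so that IEC2 and IEC12 overlapped and AOC stood above both.

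**Figure D3:**
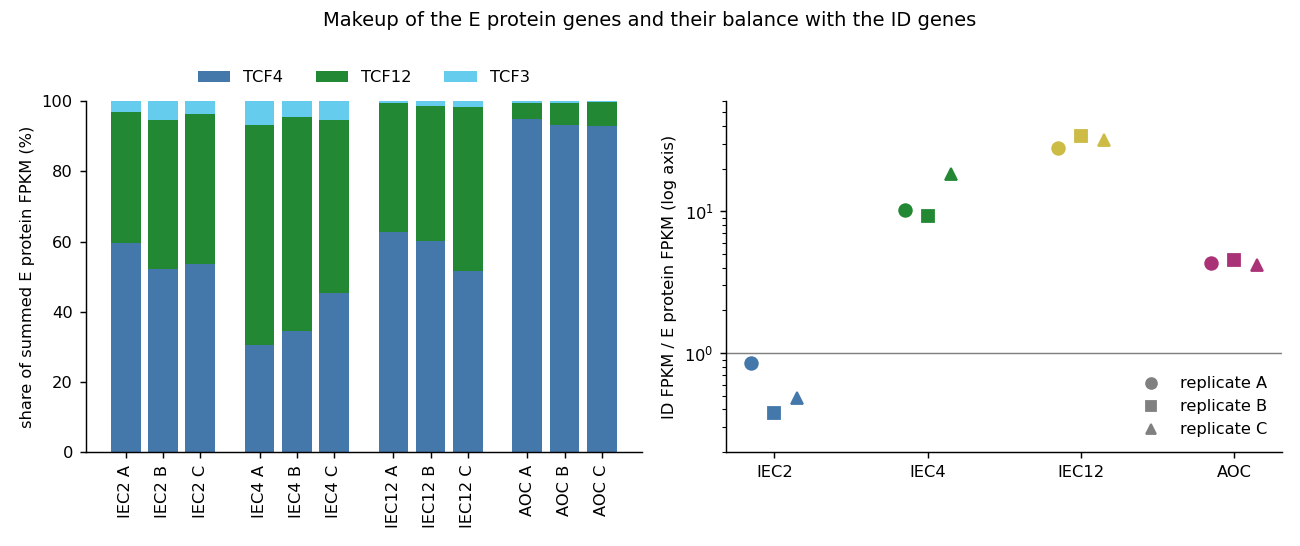
Left, share (%) of TCF4, TCF12 and TCF3 in the summed FPKM of the E protein genes in each of the 12 libraries; right, summed FPKM of the ID genes divided by that of the E protein genes on a log axis, 1 point per library, with a line at 1. TCF4 takes 92.9 to 95% in AOC, and the ratio lies under 1 only in IEC2 and reaches 33.8 in IEC12.

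ID genes answer to BMP signals, so the other feedback and target genes of BMP and SMAD1/5 were read beside them. All 13 listed genes were found, and 7 passed the filter. From IEC2 to IEC4, when BMP4 was part of the medium, 4 of the 7 rose and none fell, beside 24.8% higher and 12.5% lower among all tested genes, and the median of the 7 was 0.92 against 0.20 for all genes. SMAD9, a receptor-activated SMAD that is itself a BMP target, went from 0.272 ± 0.152 to 8.28 ± 0.896 FPKM (log2 fold change 2.87, SE 0.201, adjusted p = 1.18e-05). BMPER, a secreted modulator of BMPs in vessels, went from 0.286 ± 0.295 to 7.47 ± 3.73 FPKM (2.65, SE 0.324, adjusted p = 0.00025), and SMAD6, an inhibitory SMAD, from 0.205 ± 0.184 to 4.75 ± 3.38 FPKM (2.11, SE 0.355, adjusted p = 0.00151). HEY1, a repressor shared with the Notch pathway, rose by 0.92 (adjusted p = 0.0328), a call lost in 5 of 13 alternatives. SMAD9, BMPER and SMAD6 were under an FPKM of 1 in all of IEC2 and passed the filter through IEC4 and IEC12. The count of 4 and the median of the 7 are therefore no support.

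From IEC4 to IEC12, 4 of the 7 rose (17.3% of all genes), but only HEY1 did so in both steps. BAMBI, a decoy receptor, went from 4.13 ± 1.27 to 43.8 ± 14.2 FPKM (3.10, SE 0.271, adjusted p = 4.77e-05), the homeobox gene DLX5 from 5.97 ± 1.79 to 25 ± 8.49 (1.87, SE 0.278, adjusted p = 0.00077) and the BMP antagonist NOG from 0.0348 ± 0.0602 to 2.05 ± 0.54. NOG reached an FPKM of 1 in the 3 IEC12 libraries alone, so it passed the filter through the group where it is high and its call is no support. SMAD6 (0.44, adjusted p = 0.34) and SMAD9 (0.17, adjusted p = 0.52) were not called in this step, as was ID2, whereas ID3 was. Over both steps 7 of 7 were higher in IEC12 than in IEC2 (24.2% of all genes), with a median of 2.28 beside 0.03. NOG, listed at 0 in IEC2, had to differ to be tested. SMAD6, SMAD9 and BMPER, under an FPKM of 1 in all of IEC2, also passed the filter through IEC4 and IEC12. The count of 7 and its median are therefore no support. In AOC 6 of the 7 were lower than in IEC12 (36.2% of all genes), with BAMBI at 0.479 ± 0.102 FPKM (log2 fold change -4.87, SE 0.249, adjusted p = 1.56e-08), and 1 was higher, BMPER at 46.8 ± 7.31 FPKM (3.37, SE 0.299, adjusted p = 1.66e-06). NOG, 1 of the 6 lower genes, again passed the filter through IEC12 alone and had to be lower. Of the other 6 genes of the list, MSX2 reached 2.01 and 4.43 FPKM in IEC4 replicates B and C. SMAD7 reached 1.84 FPKM in IEC4 replicate C and 1.14 in IEC12 replicate C, and ATOH8 1.15 and 2.46 in IEC12 replicates B and C. MSX2, SMAD7 and ATOH8 were under 1 in all of IEC2 and AOC, and the rest were under 1 in every library.

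**Figure D4:**
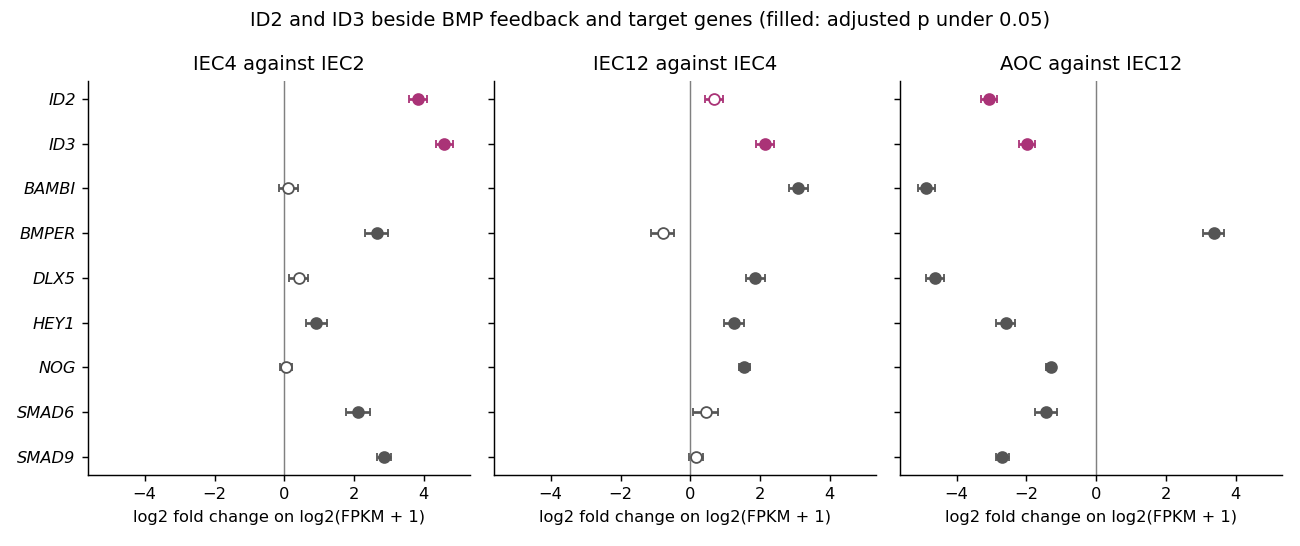
Log2 fold change on the log2(FPKM + 1) scale (x axis, bars for the standard error) of ID2, ID3 and the 7 tested BMP feedback and target genes in IEC4 against IEC2, IEC12 against IEC4 and AOC against IEC12; filled points had an adjusted p under 0.05. In the first step ID2, ID3, BMPER, HEY1, SMAD6 and SMAD9 are called higher, in the second ID3, BAMBI, DLX5, HEY1 and NOG, and in AOC all but BMPER are lower than in IEC12. NOG passed the filter through IEC12 alone, so its points are no support. ID2, BMPER, SMAD6 and SMAD9 were under an FPKM of 1 in all of IEC2 and passed the filter through other groups.

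The receptors and SMADs that carry BMP signals did not move in 1 direction. All 11 were found, and 9 were tested between stages and 10 with AOC. IEC4 exceeded IEC2 in 2 genes (24.8% of all tested genes) and was lower in 3 (12.5%). The 2 became 1 without replicate A or B of IEC2 or of IEC4. Over 13 alternatives ACVR2A, among the higher genes, lost its call in 5 and BMPR1B, among the lower, in 7. BMPR1A, a type I receptor for BMP4, went from 1.47 ± 0.22 to 6.97 ± 0.715 FPKM (1.69, SE 0.21, adjusted p = 0.000274) and on to 21.3 ± 6.13 in IEC12 (1.45, SE 0.21, adjusted p = 0.000674), and was at 0.328 ± 0.083 FPKM in AOC. ACVR1, another type I receptor, fell from 30.5 ± 4.22 to 13 ± 0.458 FPKM (log2 fold change -1.16, SE 0.2, adjusted p = 0.00176) and SMAD1 from 21 ± 1.39 to 9.15 ± 0.424 FPKM (-1.12, SE 0.147, adjusted p = 0.000374). In IEC12 5 genes were higher (17.3% of all genes) and 2 lower (26.9%) than in IEC4, ACVR1 (32.5 ± 9.21 FPKM) and SMAD5 (34.7 ± 6.92) among the higher. The calls of BMPR2 (0.68) and SMAD1 (-0.45) in this step were lost in 9 and 8 of 13 alternatives. AOC was lower than IEC12 in 7 of 10 (36.2% of all genes) and higher in 2 (22.4%), SMAD1 (21 ± 5.14 against 6.46 ± 0.879 FPKM) and ACVRL1, the endothelial receptor ALK1 (1.55 ± 0.299 against 0.0328 ± 0.0303 FPKM). ACVRL1 reached an FPKM of 1 in AOC alone and passed the filter through that group.

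The tissue-restricted bHLH factors that pair with E proteins were mostly low or not found. Of 45 listed genes 25 were found by symbol, while the others may be among the identifiers without one, and 3 passed the filter in the IEC libraries and 5 with AOC included. HAND1, a factor of extra-embryonic mesoderm, trophoblast and heart, was listed at 0 in all of IEC2 and AOC, at 6.59, 6.38 and 9.98 FPKM in IEC4, and at 0.147, 0.56 and 1.11 in IEC12. All IEC4 libraries lay above every other library, but since HAND1 passed the filter through IEC4, its test is not given. HAND2 was at 2.69 to 6.52 FPKM in the IEC libraries and at 45.4, 36.8 and 33.8 in AOC (2.90 above IEC12, SE 0.268, adjusted p = 2.33e-06). LYL1, a partner of E proteins in blood and endothelium, was listed at 0 in all 9 IEC libraries and at 2.38, 2.93 and 1.8 FPKM in AOC, the group through which it passed the filter. MESP2, a mesoderm factor, rose from 0.156 ± 0.109 FPKM in IEC2 to 1.38 ± 0.0303 in IEC4 (1.05, SE 0.191, adjusted p = 0.00239) and was at 3.15 ± 0.294 in AOC. It was under an FPKM of 1 in all of IEC2 and passed the filter through other groups. In NEUROG2, a neural factor, AOC (3.49 ± 0.347 FPKM) was above the 3 IEC groups.

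Of the proteins that join TAL1 or LYL1 and an E protein in 1 complex, TAL1 itself was not found by symbol and 13 of 14 genes were. IEC4 exceeded IEC2 in 4 of 9 tested genes (24.8% of all genes) and was lower in 1 (12.5%). The 4 became 2 without IEC2 replicate A or B or any replicate of IEC4, and the calls of LDB1 and SSBP4 were lost in 9 and 6 of 13 alternatives. GATA2 and GATA3 were under an FPKM of 1 in all of IEC2 and passed the filter through other groups, so they are no support in the count of 4. GATA2, which was at 0.00585 ± 0.0101 FPKM in IEC2, reached 2.08 ± 0.658 in IEC4 (1.59, SE 0.311, adjusted p = 0.0034). GATA3 went from 0.0297 ± 0.0047 to 1.9 ± 0.914 FPKM in IEC4 (1.45, SE 0.281, adjusted p = 0.00331) and to 11.7 ± 3.97 in IEC12 (2.13, SE 0.281, adjusted p = 0.000415). The corepressor gene RUNX1T1 fell from 22.2 ± 2.75 FPKM in IEC2 to 1.7 ± 0.102 in IEC4 (log2 fold change -3.10, SE 0.157, adjusted p = 2.33e-06). In AOC 8 of 10 tested genes were lower than in IEC12 (36.2% of all genes) and LYL1 was higher (22.4%), which was not tested once any AOC replicate was left out. SSBP2, which stabilises the LDB adaptors, was at 0.0246 ± 0.0117 FPKM in AOC against 15 ± 0.997 in IEC12 (-3.96, SE 0.135, adjusted p = 6.68e-10), and the adaptor LDB2 was listed at 0 in all AOC libraries and at 4.98 to 13.7 FPKM in the IEC libraries.

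The HES, HEY and BHLHE40 family are bHLH repressors that bind DNA without E proteins. Of 13 listed genes 10 were found and 7 or 8 tested, and they changed in both directions in every comparison. HES1 was at 2.48 ± 0.403 FPKM in IEC2, 0.912 ± 0.269 in IEC4 and 3.05 ± 0.2 in IEC12, a fall (log2 fold change -0.86, SE 0.178, adjusted p = 0.00437) followed by a rise (1.09, SE 0.178, adjusted p = 0.00121). HES6 reached 24.5 ± 7.81 FPKM in IEC12 from 4.39 ± 1.7 in IEC4 (2.25, SE 0.363, adjusted p = 0.00116). BHLHE40, a stress- and clock-linked repressor, dropped from 16.9 ± 2.14 FPKM in IEC4 to 0.137 ± 0.00845 in IEC12 (-3.97, SE 0.334, adjusted p = 3.97e-05). In AOC, HEY2, an arterial gene, was at 17 ± 2.32 FPKM against 1.27 ± 0.276 in IEC12 (2.98, SE 0.261, adjusted p = 1.46e-06), and HES2 was at 16.6 ± 3.35 against 0.0182 ± 0.0162 FPKM, a gene that passed the filter through AOC alone.

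Genes known to be under the control of ID or E proteins were 6, all found, of which 5 were tested. They include the cell cycle inhibitors CDKN1A, CDKN2A and CDKN2B, which E proteins activate, and THBS1, which ID1 represses. From IEC2 to IEC4, while ID2 and ID3 rose, 4 of 5 rose too (24.8% of all genes), and from IEC4 to IEC12, while ID3 rose again, 5 of 5 fell (26.9%). CDH1, encoding E-cadherin, reached an FPKM of 1 in IEC4 alone, so it passed the filter through that group and had to differ in both counts. Among the IEC libraries THBS1 reached an FPKM of 1 only in IEC4 and in IEC2 replicate A (1.31). It too passed the filter mainly through IEC4, so neither gene is support in these counts. The 4 became 2 without IEC4 replicate B or C. CDKN1A was at 678, 520 and 656 FPKM in IEC4 and at 47, 81.1 and 249 in IEC12 (log2 fold change -2.63, SE 0.467, adjusted p = 0.00188), and the difference between IEC2 (273 ± 15.6) and IEC4 was not called (1.16, adjusted p = 0.0768). THBS1 was at 7.45, 6.67 and 70.1 FPKM and CDH1 at 7.51, 6.54 and 42.8 FPKM in IEC4 replicates A, B and C, and both were under 1 in IEC12. Replicate C was thus high in both genes, as in the epithelial marker sum and in ID2. AOC was higher than IEC12 in 3 of the 5 tested (22.4% of all genes) and lower in none (36.2%). In AOC, CDKN2A was at 201 ± 34.7 FPKM against 4.17 ± 2.03 in IEC12 (5.37, SE 0.277, adjusted p = 1.64e-08), CDKN2B at 23.1 ± 2.44 against 2.38 ± 0.446 (2.84, SE 0.327, adjusted p = 1.43e-05) and THBS1 at 272 ± 45.7 against 0.146 ± 0.0413 (7.88, SE 0.641, adjusted p = 8.11e-07). CDKN1A and CDH1 were not called (adjusted p = 0.0829 and 0.465). These 3 higher genes were also higher in AOC than in IEC4 (4.24, 1.53 and 4.02 in the same order), a comparison in which ID3 was not called. They were higher in AOC than in IEC2 as well (5.23, 3.78 and 7.21), as was ID3 (4.75). Whether ID or E proteins had a part in these differences was not tested.

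All 4 genes for the turnover and binding of ID proteins were tested. USP1, the deubiquitinase that stabilises ID proteins, was at 9.97 ± 2.67 FPKM in IEC2, 5.73 ± 0.395 in IEC4 and 15.7 ± 2.66 in IEC12, lower in IEC4 than in IEC2 (-0.68, SE 0.199, adjusted p = 0.024) and higher in IEC12 than in IEC4 (1.30, SE 0.199, adjusted p = 0.000897). Its cofactor gene WDR48 rose from 5.62 ± 0.317 to 10.7 ± 2.3 FPKM from IEC2 to IEC4 (0.80, SE 0.181, adjusted p = 0.0074). PDLIM5, whose product binds ID2 in the cytoplasm, fell from 35.9 ± 0.433 FPKM in IEC4 to 11.4 ± 1.32 in IEC12 (log2 fold change -1.57, SE 0.143, adjusted p = 6.08e-05). FZR1, the activator of the ubiquitin ligase that degrades ID proteins, was called in none of the 6 comparisons (lowest adjusted p = 0.111), with group means of 3.12 to 5.23 FPKM.

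The genes most like each member across the 12 libraries, among 9158 genes with a symbol that passed the filter, are given as a description, since libraries of a group share their condition and 4 group levels set most of each correlation. Nearest to ID2 were CXCL14 (Pearson r = 0.990, Spearman rho = 0.951), EFNA1 (0.977 and 0.937) and PCSK6 (0.975 and 0.923). EFNA1, an ephrin ligand, was at 2.8, 22.7, 33 and 8.56 FPKM on average in IEC2, IEC4, IEC12 and AOC, the same order of groups as ID2. For ID3 they were PDE8A (0.987 and 0.818), SRSF6 (0.983 and 0.790) and METTL18 (0.981 and 0.797), and SRSF6, a splicing factor gene, had means of 26.7, 71.1, 136 and 76.2 FPKM. TCF4 was followed by HMGN1 (0.984 and 0.930), HINT1 (0.982 and 0.916) and POLR2F (0.982 and 0.930), TCF12 by GPD2 (0.987 and 0.965), MINPP1 (0.981 and 0.930) and NRDC (0.971 and 0.951), and TCF3 by ZNF576 (0.981 and 0.979) and MMS19 (0.979 and 0.979). None of the genes named here was among the nearest 3 of more than 1 member.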

How the data were processed

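Total RNA of the 12 libraries was amplified as cDNA by Smart-Seq2 and sequenced. The authors analysed the reads on the Galaxy server and deposited FPKM values, 1 table for each library. The submitters' processing notes name Bowtie2 2.2.3, TopHat2 2.0.12, Cufflinks 2.2.1 and the build susScr11, which is Sscrofa11.1, and any scaling between libraries is not given in the sources used here. FPKM keeps no read number, so the depth is unknown and no counting interval is given. A listed 0 may stand for an estimate that failed. Libraries of undifferentiated cells (iPS) and of sorted cells (S) are not analysed here.

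Symbols came from a table of Ensembl pig names (13998 of 19681 identifiers had one), and coordinates of the 7 genes from RefSeq, matched by symbol. Groups and replicate letters were taken from the sample labels. Differences were tested with limma 3.58.1 (R 4.3.3) on log2(FPKM + 1), two-sided, with the variance tied to mean expression. The filter kept genes that reached an FPKM of 1 in 3 or more of the libraries fitted. These were 10542 genes in the 9 IEC libraries (comparisons between stages) and 11053 in all 12 (comparisons with AOC), and p-values were adjusted by Benjamini-Hochberg over all of them. Fold changes on this scale understate those of low genes, and ratios of means are of FPKM. A call is an adjusted p under 0.05, and the stricter limits are those that the study applied to its own contrast. The test was checked on simulated data. Tables were made with Python 3.11.15, pandas 2.3.3 and NumPy 2.4.6, and figures with matplotlib 3.10.9.

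The members, gene lists and tests were chosen with earlier results of these data known. From each list, up to 3 called genes per direction and comparison with the largest change could be named, with any other whose level was needed to describe the list, and for each tested member the 3 genes with the highest Pearson r. Not every gene under this rule is named, and 1 gene near TCF3 is not reported here. Alternatives were no filter, a pseudocount of 0.1, fits restricted to the pair of groups, the replicate letter as a block, median-of-ratios scaling, equal FPKM totals, a variance not tied to expression, the stricter limits, each replicate left out in turn, and the ratio of ID to E protein levels without ID3.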

Additional observations from a re-analysis of the deposited data

How the results depend on the processing

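The 30 log2 fold changes of the 5 tested genes were recomputed under up to 13 alternatives each, 389 values in all, of which 371 kept the direction and the side of the limit, 9 lost a call, 7 gained one and 2 turned in sign. ID3 kept its call in all 13 alternatives from IEC2 to IEC4 (4.3 to 4.85) and from IEC4 to IEC12 (1.93 to 2.38), and so did ID2 from IEC2 to IEC4 (3.49 to 4.8). The 2 values that turned, neither of them called, were TCF12 in IEC12 against IEC4 without IEC4 replicate C (-0.01, within a range of -0.01 to 0.33 as each replicate was left out) and ID3 in AOC against IEC4 with equal FPKM totals (-0.11). TCF12 in IEC4 against IEC2 lost its call without a filter (adjusted p = 0.0697), with the replicate block (0.0695), with median-of-ratios scaling (0.175), with equal totals (0.0997) and without IEC2 replicate A (0.136), IEC2 replicate B (0.0921), IEC4 replicate A (0.133) or IEC4 replicate B (0.14). TCF3 in AOC against IEC12 gained a call without IEC12 replicate A (-0.56, adjusted p = 0.0495). At the stricter limits the number of the 5 genes called fell to 0 in IEC12 against IEC4, 2 in IEC12 against IEC2, 1 in AOC against IEC2, 0 in AOC against IEC4 and 1 in AOC against IEC12. Whether the replicate letters pair the libraries is not stated. Deviations of libraries of 1 letter from their group means correlated between -0.514 and 0.247. Only IEC12 and IEC2 exceeded 0.1, for letters A (0.247) and C (0.204). With 3 libraries per group, these correlations cannot exclude a pairing. With the letter as a replicate block, 2, 3, 4, 5, 4 and 4 genes were called in the 6 comparisons in the order given above, and the block changed no call of a member other than that of TCF12. The cause of these changes was not tested. FPKM without read counts sets no limit of detection, which bears most on ID1, ID4, TCF3 and the IEC2 level of ID2.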
